A study of Mus musculus with 12 samples.

Results

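The interaction of genotype and short-chain fatty acid (SCFA) treatment was measured in non-adherent cells of mouse bone marrow, as the genotype difference under SCFA minus the genotype difference without it. It was computed for each gene on the log2 scale from the 4 group means, so that a difference between the treatments that both genotypes shared cancelled. All 12 libraries of the series entered it, 3 in each of 4 groups. Control untreated and control SCFA mice carried a genotype labelled control, without naming any allele or Cre. Homozygous untreated and homozygous SCFA mice were labelled STAT3Cstopfl/fl CD4Cre, and homozygous untreated 1 alone R26STAT3Cstopfl/fl CD4Cre; their titles give all 6 as homozygous, and they entered as 1 group per treatment. The allele encodes an always-active STAT3 behind a stop cassette. CD4-Cre removes such cassettes mainly in cells of the T lineage, so the marrow cells measured here need not carry the active protein themselves. SCFA was given in drinking water, the untreated mice had none, and marrow was taken from all mice at about 8 weeks and held for about 24 hours in alpha-MEM. Whether each library is a mouse of its own is not stated, so p-values measure only the spread between these libraries, which may be technical. Untreated libraries are labelled month 3, day 1, and SCFA libraries month 3, day 30. A date effect that differed between the genotypes cannot be told apart from the interaction.

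As background, SCFAs are made from fibre by gut bacteria and act on marrow and immune cells through G-protein coupled receptors such as Ffar2 and through inhibition of histone deacetylases. Type I interferons act through the receptor chains Ifnar1 and Ifnar2 and factors that include Stat2 and Irf9, which bind interferon-stimulated response elements (ISRE) and switch on antiviral genes, and interferon gamma acts at GAS elements. B cells arise in the marrow under Ebf1 and Pax5, and their precursors cut and join antibody genes with Rag1 and Rag2 and display a surrogate light chain made of Igll1 and Vpreb proteins.

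Levels are given as normalised CPM, the deposited counts relative to the library total, scaled by a TMM (trimmed mean of M-values) factor. The label names the cells progenitors. Kit, the stem cell factor receptor of progenitors, stood at 44.5 to 76.97 CPM over the 12 libraries. The neutrophil gene S100a9 stood at 5963 to 13197, the globin gene Hbb-bs at 1047 to 10051 and the antibody gene Ighm at 196 to 1598. Each of these genes of maturing lineages was above Kit in every library. Other genes of such lineages, among them Pax5 and Rag1 in homozygous SCFA, stood below it. Cd4, whose promoter drives the Cre, stood at 0.537 to 8.47 CPM. In bulk RNA, fewer cells of a type and less RNA per cell cannot be told apart, and this holds for every cell type gene below.

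Total counts were 16954355 to 20748995 per library. A principal component analysis placed homozygous SCFA at 59.8 to 70.6 on its first axis (24.7% of variance), homozygous untreated at 4.92 to 8.13 and all 6 controls at -39.3 to -34.5. Control untreated 2 had the most extreme score on the second axis (17.8%), 87.4, where controls untreated 1 and 3 scored 4.63 and 41.5.

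A difference between libraries followed the GC content of transcripts, and it moved with the interaction. It ranked the 12 libraries in the same order as the second axis, so it is not a separate difference from that one. It was measured as the median log2 level of the 10% of genes with the most GC-rich transcripts relative to the 10% with the most GC-poor, as a deviation from the mean over libraries. This was 0.02, 1.03 and 0.60 in control untreated libraries and -0.19, -0.53 and -0.06 in homozygous untreated libraries. It was -0.32, -0.43 and -0.70 in control SCFA and -0.13, 0.44 and 0.31 in homozygous SCFA libraries. The interaction also climbed with GC over the genes with a known transcript GC, 15385 of 15674 tested (98.2%). In the most GC-poor 10% (28.3% to 40.6% GC) the median log2 interaction was -0.69, with 0.52% of genes called higher and 21.8% called lower. In the most GC-rich 10% (57.1% to 78.3%) it was 1.11, with 46.9% called higher and 0.91% called lower. Spearman's rho of the interaction with GC was 0.578 across genes, which are not independent replicates, and -0.015 with transcript length. Counts over lists and most values of named genes are therefore given also after a GC correction, chosen after seeing the data, which removes the smooth trend with GC from every library and by construction leaves medians of -0.003 and 0.015 in these classes. The part that GC played in single results was otherwise not tested.

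**Figure D1:**
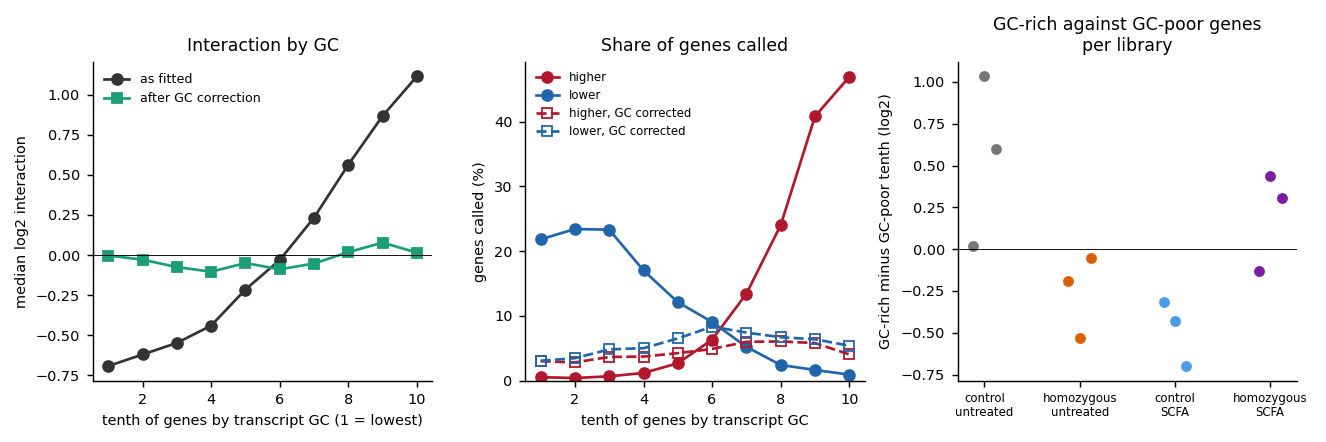
The left panel plots the median log2 interaction in 10 equal classes of genes by transcript GC, the middle panel the percentage of genes called in each direction, and the right panel, as 1 point per library, the log2 level of the most GC-rich class relative to the most GC-poor class. The median climbed from -0.69 to 1.11 as fitted and was near 0 after the GC correction; control untreated 2 was the highest library at 1.03.

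The genotype difference changed with SCFA for 3938 of 15674 genes tested (25.1%) at an adjusted p under 0.05 in edgeR's quasi-likelihood test, the threshold at which a gene is called here. Called higher means that the homozygous level relative to control was higher under SCFA than without it, and this held for 2125 genes (13.6%). Called lower means the reverse, for 1813 genes (11.6%). A change of 2-fold or more was fitted for 1429 of the genes called higher and 828 of those called lower. After GC correction 1581 genes were called (10.1%), 694 higher (4.43%) and 887 lower (5.66%), so that the balance of directions turned. The fits as reported and after GC correction shared 1137 called genes, 1135 with the same sign. Leaving out 1 library gave 2455 called genes without homozygous SCFA 2, 2478 without control SCFA 3 and 2579 without homozygous untreated 2. The count rose to 5379 without control untreated 1 and to 4330 without homozygous SCFA 1. The median log2 interaction of all genes tested was -0.08 (-0.03 after GC correction).

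The 2 genotype differences behind each interaction had 2323 genes called without SCFA (14.8%) and 2722 under SCFA (17.4%). Among the 3938 called interactions the fitted genotype differences had opposite signs for 3463 genes, the same sign and a larger size under SCFA for 355, and the same sign and a smaller size for 120. These are descriptions of genes chosen by the interaction, and over all genes tested the corresponding numbers were 9540, 3192 and 2942. After GC correction they were 1136, 363 and 82 of 1581 called genes. Both differences were called, with opposite signs, for 361 genes (2.3%), 276 of them higher and 85 lower under the interaction. That number was 106 after GC correction. It depended on single libraries: it was 1010 without control untreated 1, 368 and 436 without homozygous untreated 3 and homozygous SCFA 1, and 63 to 240 without each of the other 9 libraries. In the libraries themselves, 541 genes (3.45%) had homozygous above control without SCFA and below it under SCFA with no overlap either time, and 866 (5.53%) had the reverse.

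**Figure D2:**
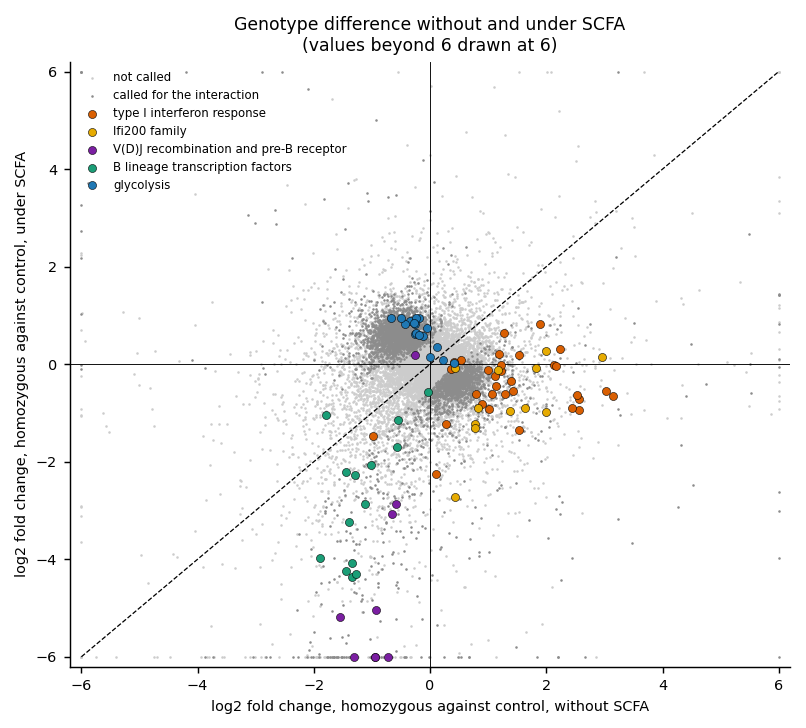
Each point is 1 of 15674 genes, with the log2 fold change of homozygous against control without SCFA on the x axis and under SCFA on the y axis, and values beyond 6 drawn at 6. The dashed line marks equal differences: all type I interferon and Ifi200 genes drawn lie below it, and all but 1 to the right of 0, while V(D)J and B lineage factor genes lie to the left of 0 and, except Erg and Tcf3, below the line.

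Type I interferon response genes, as a group, were above control in homozygous cells without SCFA and mostly not above it under SCFA. Of 32 type I interferon response genes tested, 27 were called lower and 0 higher, with a median log2 interaction of -1.69. After GC correction 29 were called lower, with a median of -1.83, and none higher. Without SCFA 26 of the 32 were higher in homozygous than in control cells and 1 lower, at a median log2 difference of 1.25. Under SCFA 2 were higher and 12 lower, at a median of -0.49. Their summed level was 2166.4 to 2256 CPM in control untreated, 4794 to 5186 in homozygous untreated, 2052 to 2261 in control SCFA and 1443 to 1625 in homozygous SCFA libraries. The sum of the homozygous untreated group thus lay above, and that of the homozygous SCFA group below, both control groups. The 5 members not called, named here after their values were seen, were Mx2, Stat2, Dhx58, Bst2 and Isg20.

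Ifit2 (chr19:34550694-34576419, mm10), which binds RNA and restrains viral translation, stood at 32.6, 39.2 and 31.5 CPM in control untreated, 189, 208 and 198 in homozygous untreated, 48.2, 63.9 and 58.8 in control SCFA and 36.6, 32.97 and 40.01 in homozygous SCFA libraries. Homozygous libraries lay above controls without SCFA and below them under it, with no overlap either time. The log2 interaction was -3.17 ± 0.20 (SE, adjusted p = 5.43e-07), from differences of 2.53 without and -0.64 under SCFA, and -2.55 after GC correction. Ifit3 (chr19:34583531-34588731), an adaptor of the same family, stood at 15.005, 16.5 and 18.4 CPM in control untreated, 140.0, 135 and 132 in homozygous untreated, 15.4, 18.5 and 18.4 in control SCFA and 9.45, 14.7 and 11.4 in homozygous SCFA libraries. Homozygous again lay above control without SCFA and below it under SCFA, without overlap. The log2 interaction of Ifit3 was -3.58 ± 0.23 (SE, adjusted p = 5.43e-07), and -3.40 after GC correction.

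Ifi27l2a, a small interferon-induced membrane protein gene, stood at 95.3, 82.4 and 80.2 CPM in control untreated, 296, 231 and 215 in homozygous untreated, 114, 106 and 103 in control SCFA and 35.5, 49.5 and 41.04 in homozygous SCFA libraries. Both genotype differences were called, in opposite directions, at 1.52 and -1.36 on the log2 scale, and the interaction was -2.88 ± 0.22 (SE, adjusted p = 2.57e-06; -3.34 after GC correction). Not every member changed side. Oasl2, of the oligoadenylate synthetase family, stood at 96.1, 100.3 and 125 CPM in control untreated, 483, 457 and 469 in homozygous untreated, 140.0, 138 and 131 in control SCFA and 131, 131 and 141 in homozygous SCFA libraries. The genotypes overlapped under SCFA, and the log2 interaction of Oasl2, -2.16 ± 0.17 (SE; -2.19 after GC correction), was made up of 2.13 without and -0.03 under SCFA. Isg15, a ubiquitin-like modifier, stood at 45.9, 54.6 and 58.1 CPM in control untreated, 76.4, 54.8 and 60.99 in homozygous untreated, 30.8, 31.1 and 28.2 in control SCFA and 11.3, 14.7 and 12.7 in homozygous SCFA libraries. Its genotypes overlapped without SCFA and were apart under it, and its log2 interaction was -1.50 ± 0.23 (SE, adjusted p = 0.000914; -1.95 after GC correction).

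**Figure D3:**
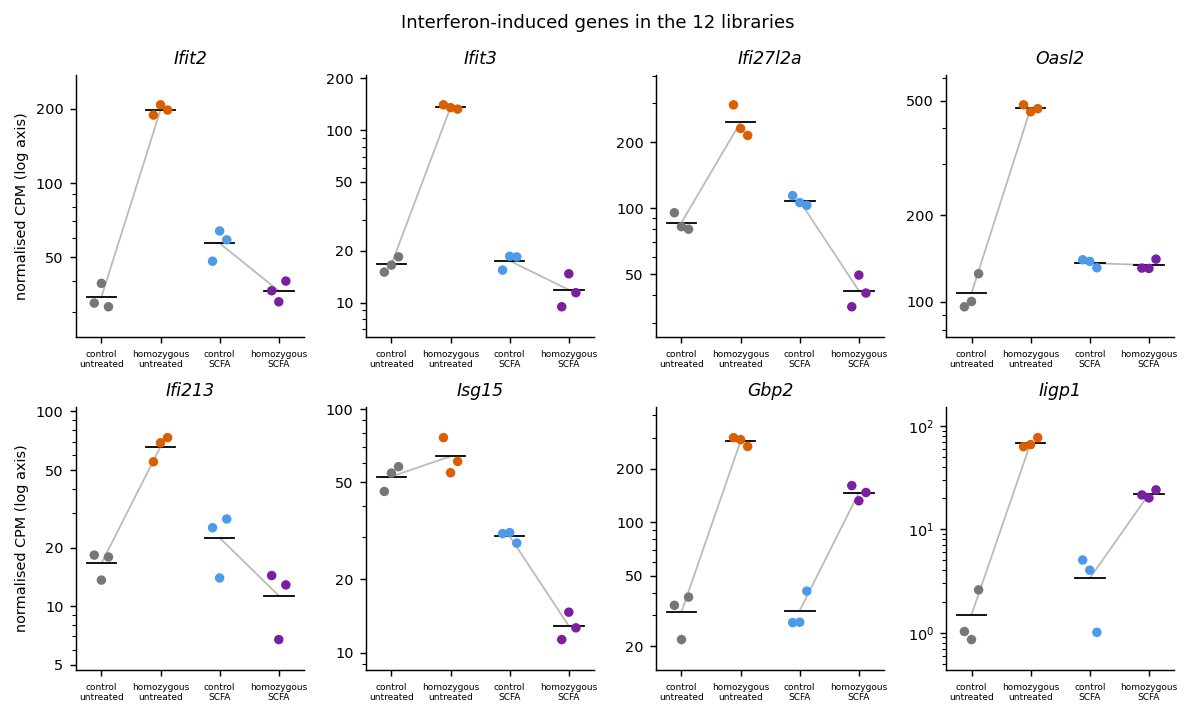
Normalised CPM on a log axis in each of the 12 libraries (points), with the group mean (bar) and a line joining the genotypes within each treatment. In all 8 genes the homozygous untreated mean is the highest of the 4; under SCFA homozygous lies below control for Ifit2, Ifit3, Ifi27l2a, Ifi213 and Isg15, near it for Oasl2 and above it for Gbp2 and Iigp1.

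The promoters of 4 of these genes are shown with those of Ebf1 and Rag1, described further on, as examples of the interferon and early B cell genes whose members moved together. Each is the RefSeq window of 300 bases on GRCm38.p6, from 250 bases before to 50 after an annotated start, read 5′ to 3′ on the gene's strand. Capitals mark matches, on either strand, to the core of the ISRE (GAAA, any 2 bases, GAAA) or to the GAS motif (TTC, any 3 bases, GAA). Where a gene has more than 1 start, the first is shown. Ifit1 was added after its values were seen.
Ifit2, chr19:34550444-34550743, plus strand: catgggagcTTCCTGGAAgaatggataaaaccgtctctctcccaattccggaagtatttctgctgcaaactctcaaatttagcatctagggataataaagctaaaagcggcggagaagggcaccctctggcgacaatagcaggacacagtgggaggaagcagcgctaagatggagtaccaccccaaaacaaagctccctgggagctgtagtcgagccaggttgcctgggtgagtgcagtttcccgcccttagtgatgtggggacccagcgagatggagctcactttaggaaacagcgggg
Ifit3, chr19:34583279-34583578, plus strand: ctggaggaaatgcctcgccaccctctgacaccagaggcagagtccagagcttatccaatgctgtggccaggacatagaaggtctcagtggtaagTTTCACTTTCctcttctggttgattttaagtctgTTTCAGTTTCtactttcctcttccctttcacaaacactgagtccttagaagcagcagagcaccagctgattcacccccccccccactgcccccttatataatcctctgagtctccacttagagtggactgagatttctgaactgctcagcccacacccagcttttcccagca
Ifit1, chr19:34640639-34640938, plus strand: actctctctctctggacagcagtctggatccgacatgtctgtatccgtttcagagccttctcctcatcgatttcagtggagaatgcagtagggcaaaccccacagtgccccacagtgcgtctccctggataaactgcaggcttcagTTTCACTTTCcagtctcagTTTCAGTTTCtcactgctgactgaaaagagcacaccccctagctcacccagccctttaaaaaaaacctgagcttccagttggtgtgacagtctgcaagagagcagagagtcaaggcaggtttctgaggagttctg
Oasl2, chr5:114896684-114896983, plus strand: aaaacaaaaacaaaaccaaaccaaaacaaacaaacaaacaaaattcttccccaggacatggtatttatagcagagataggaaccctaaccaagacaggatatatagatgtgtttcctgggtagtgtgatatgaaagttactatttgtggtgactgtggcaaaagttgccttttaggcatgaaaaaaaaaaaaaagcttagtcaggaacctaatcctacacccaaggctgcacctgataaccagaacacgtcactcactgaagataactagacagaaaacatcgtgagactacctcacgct
Ebf1, chr11:44617850-44618149, plus strand: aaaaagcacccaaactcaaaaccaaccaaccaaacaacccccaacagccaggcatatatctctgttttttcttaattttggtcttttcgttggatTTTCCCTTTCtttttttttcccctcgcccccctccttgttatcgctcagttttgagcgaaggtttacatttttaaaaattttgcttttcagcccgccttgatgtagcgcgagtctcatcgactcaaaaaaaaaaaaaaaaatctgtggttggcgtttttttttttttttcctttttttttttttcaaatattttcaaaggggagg
Rag1, chr2:101649483-101649782, minus strand: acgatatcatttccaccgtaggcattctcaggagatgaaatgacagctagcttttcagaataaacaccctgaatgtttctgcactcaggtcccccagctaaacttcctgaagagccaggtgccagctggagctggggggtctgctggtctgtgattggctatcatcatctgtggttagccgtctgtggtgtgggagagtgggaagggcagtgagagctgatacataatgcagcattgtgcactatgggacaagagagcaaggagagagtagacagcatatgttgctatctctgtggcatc
The Ifit3 and Ifit1 windows each held 2 ISRE core matches, the Ifit2 window 1 GAS match, the Ebf1 window 1 ISRE core match, and the Oasl2 and Rag1 windows none of either. An ISRE core match was found for 14 of 22 type I interferon genes with an entry, 9 of 12 Ifi200 genes, 11 of 14 interferon gamma response genes, 0 of 9 V(D)J genes, 1 of 13 B lineage factor genes and 0 of 22 genes of IL-6 and STAT3 signalling, against 3.99% of 27025 genes with a window. A GAS match was found for 4, 1, 8, 1, 3 and 1 genes of these lists, in the same order, against 9.55% of genes. A match is a string of letters and not a site shown to be bound, and a window without one may have it elsewhere.

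The Ifi200 genes, a cluster on chromosome 1 whose proteins sense nucleic acid in the nucleus and cytosol, were also above control without SCFA and mostly below it under SCFA. Of 12 tested, 11 were called lower and 0 higher, at a median log2 interaction of -2.03, and 10 were called lower after GC correction, at -1.39. Aim2, the DNA sensor of the inflammasome, was the member not called. The median genotype difference went from 1.28 without SCFA to -0.90 under it. Ifi213 stood at 18.3, 13.6 and 17.9 CPM in control untreated, 55.2, 69.1 and 73.4 in homozygous untreated, 25.3, 13.97 and 28.1 in control SCFA and 14.4, 6.75 and 12.9 in homozygous SCFA libraries. The genotypes were apart without SCFA and overlapped narrowly under it, and the log2 interaction of Ifi213 was -2.97 ± 0.40 (SE, adjusted p = 0.000425; -2.31 after GC correction). Ifi214 stood at 20.1, 16.8 and 15.4 CPM in control untreated, 24.1, 22.4 and 24.2 in homozygous untreated, 29.8, 34.4 and 25.5 in control SCFA and 4.62, 4.70 and 4.28 in homozygous SCFA libraries, at -3.15 ± 0.24 (SE; -2.40 after GC correction). Homozygous lay above control without SCFA by a small margin that was not called, and far below it under SCFA. Ifi206 (log2 interaction -2.34 ± 0.39, SE; -1.91 after GC correction) and Trim30c (-2.77 ± 0.45; -2.27 after GC correction), a member of another interferon-induced family, also had both genotype differences called with opposite signs. The members of these families are near-identical in places, and how reads shared among them were counted is not given in the sources used here, so their single values are uncertain.

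Most interferon gamma response genes stayed above control in homozygous cells under SCFA. Of 20 tested, 10 were called lower and 1 higher, at a median of -0.94, and 8 lower and 0 higher after GC correction, at -0.70. The 1 called higher was Ciita, named after its value was seen. The median genotype difference was 1.38 without and 0.79 under SCFA, with 15 and 11 genes called higher in homozygous cells. Gbp2, a guanylate-binding protein of cell-autonomous immunity, stood at 34.1, 21.8 and 37.9 CPM in control untreated, 299.9, 292 and 267 in homozygous untreated, 27.2, 27.4 and 40.9 in control SCFA and 161, 132 and 147 in homozygous SCFA libraries. Homozygous libraries were above controls in both treatments, without overlap, and the gap narrowed: the log2 interaction was -0.99 ± 0.28 (SE, adjusted p = 0.0186; -0.73 after GC correction), with an adjusted p = 0.0698 after GC correction. Iigp1, an immunity-related GTPase, stood at 1.03, 0.859 and 2.59 CPM in control untreated, 62.9, 65.8 and 76.9 in homozygous untreated, 5.04, 4.02 and 1.01 in control SCFA and 21.5, 20.1 and 24.1 in homozygous SCFA libraries. It too was above control in both treatments, with a log2 interaction of -2.81 ± 0.59 (SE, adjusted p = 0.00501; -2.15 and 0.0407 after GC correction). Gbp9 (-1.59 ± 0.18, SE; -0.99 after GC correction) did change side, and Irgm1 (-1.57 ± 0.19; -1.21 after GC correction), an autophagy-linked GTPase, had overlapping genotypes under SCFA.

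Of 16 interferon receptor and factor genes, 3 were called higher and 4 lower (13.6% and 11.6% over all genes). After GC correction 0 and 3 were (4.43% and 5.66% over all genes). Irf7, the factor that amplifies type I interferon, stood at 93.6, 120.2 and 97.6 CPM in control untreated, 236, 207 and 243 in homozygous untreated, 81.4, 79.8 and 73.4 in control SCFA and 55.98, 58.996 and 57.7 in homozygous SCFA libraries. It was above control without SCFA and below it under SCFA, without overlap, at -1.58 ± 0.17 (SE, adjusted p = 7.74e-05; -2.33 after GC correction). The receptor chains Ifnar1, Ifnar2, Ifngr1 and Ifngr2 were not called, at 0.06, 0.01, 0.12 and 0.35.

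Ly6a (Sca-1), a surface protein of stem cells that is also induced by interferon, stood at 103, 80.7 and 88.7 CPM in control untreated, 362, 364 and 301 in homozygous untreated, 159, 183 and 174 in control SCFA and 153, 151 and 133 in homozygous SCFA libraries. Homozygous lay above control without SCFA by a wide margin and just below it under SCFA, where the difference was not called, and the log2 interaction was -2.15 ± 0.18 (SE, adjusted p = 5.76e-06; -2.03 after GC correction). Of the 14 stem and progenitor genes 5 were called lower and 1, Gata2, higher, and 3 and 0 after GC correction. Kynu, an enzyme of tryptophan breakdown, had both genotype differences called, 1.23 without and -1.01 under SCFA, and a log2 interaction of -2.23 ± 0.33 (SE; -1.61 after GC correction).

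Genes of early B cells had the lowest median interaction of the 42 lists. Here the summed homozygous level was below control in both treatments and further below under SCFA. Of 9 genes of V(D)J recombination and the pre-B receptor, 8 were called lower, as after GC correction, and none higher. Erg, a factor that stem cells share, was the 1 not called, at 0.45. Their summed level was 364 to 452 CPM in control untreated, 186 to 220 in homozygous untreated, 405 to 506 in control SCFA and 29.96 to 38.1 in homozygous SCFA libraries. The median log2 genotype difference was -0.92 without SCFA and -5.18 under it, with 4 and 8 of the 9 genes called lower in homozygous cells. The median log2 interaction was -4.12, and -3.78 with the 3 members at 0 counts in homozygous SCFA set at their bounds.

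Rag1 (chr2:101638282-101649501), the catalytic subunit of the recombinase, stood at 43.99, 44.4 and 35.8 CPM in control untreated, 19.5, 17.3 and 13.04 in homozygous untreated, 50.3, 51.6 and 75.3 in control SCFA and 0, 0 and 0 in homozygous SCFA libraries. Not a single count fell on it in the 3 homozygous SCFA libraries, which allows up to 0.0538 CPM (3 counts over the group; counting error only). Homozygous was therefore at least 1098-fold lower than control under SCFA, against 2.49-fold lower without it, and the ratio of these folds was at least 440.7. The adjusted p was 5.43e-07. Rag2, its partner, stood at 45.1, 20.6 and 36.5 CPM in control untreated, 20.5, 25.9 and 15.8 in homozygous untreated, 40.2, 42.9 and 39.5 in control SCFA and 0, 0 and 0 in homozygous SCFA libraries, again with 0 counts in homozygous SCFA. Rag2 was at least 758.9-fold lower under SCFA against 1.64-fold without, where the genotypes overlapped. Igll1 stood at 35.03, 39.1 and 36.3 CPM in control untreated, 18.8, 16.7 and 21.5 in homozygous untreated, 23.6, 22.7 and 18.7 in control SCFA and 0.161, 0 and 0 in homozygous SCFA libraries, with 3 counts in all in homozygous SCFA (adjusted p = 8.76e-07). Each of the 3 genes was thus readily measured in the 9 libraries of the other groups.

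The transcription factors of the lineage were lower together. Of 14 tested 13 were called lower and 0 higher, at a median of -1.44, and 9 after GC correction, at -1.21. Tcf3, the 1 not called as fitted, was at 0.74, and at -0.52 after GC correction. Without SCFA 12 of the 14 were already lower in homozygous cells, and under SCFA all 14 tested were. Ebf1 (chr11:44617317-45008091), which commits progenitors to the lineage, stood at 119.5, 121 and 119.8 CPM in control untreated, 41.99, 52.2 and 47.1 in homozygous untreated, 169.7, 163 and 184 in control SCFA and 8.48, 8.03 and 8.61 in homozygous SCFA libraries. The groups fell in 4 separate ranges, control SCFA the highest and homozygous SCFA the lowest. Its log2 differences were -1.35 without and -4.36 under SCFA, and the interaction was -3.01 ± 0.17 (SE, adjusted p = 1.8e-07; -2.45 after GC correction). Pax5, which holds cells in the lineage, stood at 53.97, 23.2 and 31.1 CPM in control untreated, 14.4, 15.6 and 14.7 in homozygous untreated, 59.7, 54.8 and 75.5 in control SCFA and 4.40, 3.02 and 2.17 in homozygous SCFA libraries. Control and homozygous did not overlap in either treatment, and the log2 interaction of Pax5 was -3.03 ± 0.41 (SE, adjusted p = 0.000425; -3.17 after GC correction). Bach2, a repressor that delays plasma cell fate, had -2.79 ± 0.23 (SE; -2.77 after GC correction).

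Receptor genes of later B cells were more mixed. Of 14 genes of B cell receptor signalling 8 were called lower and 3 higher, at a median of -0.66, and 6 and 1 after GC correction. Those higher were Syk, Plcg2 and Ptpn6, which myeloid cells also use; Ptpn6 was the 1 kept. Of 14 mature B cell surface genes 7 were lower and 2, Cd37 and Cd74, higher (6 and 1 after GC correction). Cd79b, a signalling chain of the receptor, stood at 259.8, 314 and 282 CPM in control untreated, 88.9, 84.7 and 97.3 in homozygous untreated, 243, 249.7 and 216 in control SCFA and 28.5, 30.6 and 29.98 in homozygous SCFA libraries. The log2 interaction was -1.33 ± 0.16 (SE, adjusted p = 0.000199; -1.94 after GC correction), from -1.66 to -2.99. Cd72, a coreceptor, stood at 169, 204 and 193 CPM in control untreated, 55.4, 44.6 and 57.9 in homozygous untreated, 151, 171 and 148 in control SCFA and 9.77, 8.54 and 8.27 in homozygous SCFA libraries, at -2.30 ± 0.19 (SE; -3.15 after GC correction). In both genes homozygous lay below control in each treatment with no overlap. The gap between genotypes in CPM was of similar size in both treatments for Cd79b and Cd72, so their interactions rest mainly on the log scale. Blnk, the adaptor downstream of the pre-B receptor (-2.41 ± 0.20, SE; -2.06 after GC correction), and Ms4a1, which encodes CD20 (-2.12 ± 0.25; -1.51 after GC correction), were called lower too.

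Genes outside the lists were also lowest in homozygous SCFA. Cecr2, a chromatin remodelling subunit, had the smallest p of all genes named. It stood at 108, 124 and 109 CPM in control untreated, 38.3, 42.8 and 47.9 in homozygous untreated, 145, 159 and 172 in control SCFA and 1.82, 1.84 and 1.54 in homozygous SCFA libraries, with a log2 interaction of -5.11 ± 0.21 (SE, adjusted p = 5.13e-09). Akap12, a scaffold for protein kinase A, stood at 111, 164 and 127 CPM in control untreated, 44.8, 47.1 and 40.3 in homozygous untreated, 155, 176 and 188 in control SCFA and 1.40, 2.15 and 1.37 in homozygous SCFA libraries, at -5.10 ± 0.27 (SE). Fam129c, a B cell gene, stood at 90.1, 119 and 98.1 CPM in control untreated, 22.9, 27.4 and 22.6 in homozygous untreated, 80.6, 87.7 and 81.3 in control SCFA and 1.07, 1.69 and 1.54 in homozygous SCFA libraries, at -3.78 ± 0.24 (SE). In all 3 genes, homozygous SCFA libraries lay far below the other 9, which the GC correction left in place (-4.90, -5.50 and -4.88). In CPM the interactions were -86.45 for Cecr2, -81.06 for Akap12 and only -3.617 for Fam129c. The gap between genotypes in CPM was thus nearly equal in both treatments for Fam129c, whose interaction rests mainly on the log scale.

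A further 6 of the 8 lowest interactions had 0 counts in homozygous SCFA and lower levels in homozygous than in control cells without SCFA. Gfra1, a coreceptor for glial neurotrophic factor, stood at 14.3, 18.1 and 18.3 CPM in control untreated, 9.87, 5.50 and 9.68 in homozygous untreated, 21.9, 24.03 and 26.9 in control SCFA and 0, 0 and 0 in homozygous SCFA libraries, and was at least 451.4-fold lower under SCFA against 2.03-fold without. Lgr5, a receptor for R-spondins, was at least 305.8-fold lower against 2.79-fold, Tnfrsf19 at least 312.0-fold against 2.88-fold, Sertad4 at least 259.2-fold against 3.77-fold and Gpr12, an orphan receptor, at least 111.0-fold against 3.16-fold. Col5a3, a collagen chain, stood at 24.3, 45.8 and 35.05 CPM in control untreated, 2.71, 4.27 and 5.67 in homozygous untreated, 25.5, 24.1 and 22.7 in control SCFA and 0, 0 and 0 in homozygous SCFA libraries. It was at least 447.7-fold lower under SCFA against 8.32-fold without, yet its difference in CPM was smaller under SCFA (mean control minus homozygous 35.1 against 4.22 without SCFA, 24.1 against 0 under it), so that its direction rests on the log scale.

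**Figure D4:**
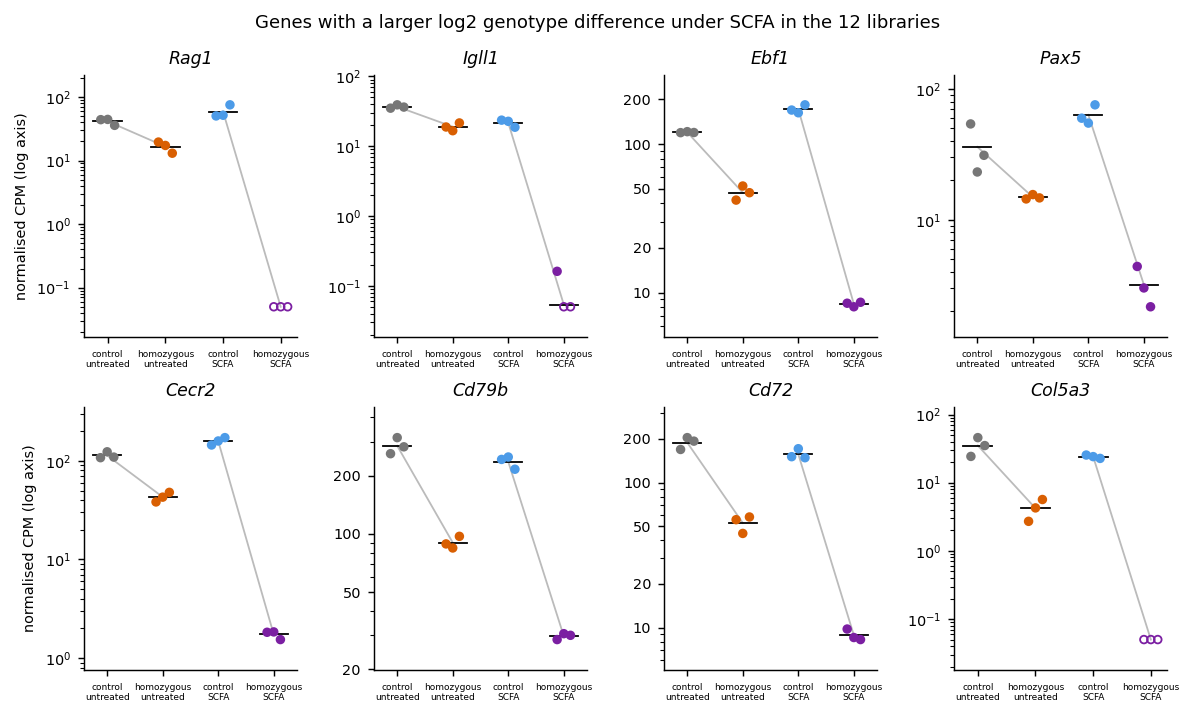
Normalised CPM on a log axis in each of the 12 libraries, with group means as bars and a line joining the genotypes within each treatment; open circles are libraries with 0 counts, drawn at 0.05. Homozygous SCFA is the lowest group in all 8 genes, and the mean of homozygous untreated lies between it and both control means.

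Markers of plasmacytoid dendritic cells, which make type I interferon and share factors with B cells, were called lower for 5 of 12 and higher for none (6 and 0 after GC correction), at a median of -1.004. Their summed level was 996 to 1253 CPM in control untreated, 522 to 630.3 in homozygous untreated, 885 to 929 in control SCFA and 271 to 348 in homozygous SCFA libraries, and their part in the interferon result was not tested. Siglech, their surface lectin, stood at 129, 80.9 and 111 CPM in control untreated, 89.4, 82.2 and 70.9 in homozygous untreated, 111, 123 and 138 in control SCFA and 19.6, 24.4 and 16.7 in homozygous SCFA libraries. The genotypes differed under SCFA without overlap and overlapped without it, and the log2 interaction was -2.21 ± 0.26 (SE, adjusted p = 0.000122; -1.84 after GC correction). Ccr9, a homing receptor, had -2.58 ± 0.27 (SE; -2.08 after GC correction). Spib, on this list and among the B lineage factors, counted under both.

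Genes of T cells, in which CD4-Cre acts, were at low levels throughout. Of 20 tested 4 were called higher and 2 lower (13.6% and 11.6% over all genes), and 2 and 2 after GC correction (4.43% and 5.66%). Their summed level was 159 to 182 CPM in control untreated, 110.1 to 119 in homozygous untreated, 129 to 152 in control SCFA and 115 to 120.1 in homozygous SCFA libraries. Cd4 stood at 5.02, 7.41 and 8.47 CPM in control untreated, 4.99, 7.30 and 3.41 in homozygous untreated, 3.66, 7.11 and 7.53 in control SCFA and 0.537, 0.971 and 3.08 in homozygous SCFA libraries, and its interaction of -1.59 ± 0.71 (SE; -1.99 after GC correction) was not called (adjusted p = 0.113). The interaction of Cd4 was called without homozygous SCFA 3, at -2.605 (adjusted p = 0.0151), and with no filter on low counts (adjusted p = 0.0335). Cd8a, the other coreceptor, stood at 11.6, 12.2 and 15.8 CPM in control untreated, 13.996, 9.82 and 11.7 in homozygous untreated, 14.3, 14.8 and 10.6 in control SCFA and 3.01, 4.81 and 4.62 in homozygous SCFA libraries, with a log2 interaction of -1.52 ± 0.33 (SE, adjusted p = 0.00648; -1.30 after GC correction). Homozygous SCFA had the lowest Cd8a level. The interaction of Cd8a was not called with GC correction and control untreated 2 left out (adjusted p = 0.0521). Cd2, an adhesion molecule of T and B cells, was also lower at -1.22 ± 0.29 (SE; -1.44 after GC correction). The receptor constant gene Trac and the signalling chain Cd247 were called higher at 1.85 and 2.17, and were also called after GC correction, at 2.00 and 2.64, and the subunits Cd3e and Cd3g were not called.

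Genes called higher are described next; GC correction took their number from 2125 to 694, and that of genes called lower from 1813 to 887. Apoe, an apolipoprotein of macrophages, stood at 669, 949.9 and 796 CPM in control untreated, 356, 302 and 408 in homozygous untreated, 556, 482 and 424 in control SCFA and 935, 1425 and 1338 in homozygous SCFA libraries. It was below control without SCFA and above it under SCFA, without overlap, and both differences were called (-1.18 and 1.34). The log2 interaction of 2.52 ± 0.25 (SE, adjusted p = 3.22e-05) was 1.38 after GC correction (adjusted p = 4.31e-07). Of 17 macrophage genes 8 were called higher and 2 lower, and 5 and 1 after GC correction. Trem2, a lipid receptor of macrophages named after its value was seen, kept its call at 1.29, and C1qc, a complement subunit, did not (adjusted p = 0.0782).

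Aqp1, the water channel of red cells, stood at 2.91, 3.86 and 2.99 CPM in control untreated, 1.79, 1.29 and 1.45 in homozygous untreated, 2.52, 2.11 and 1.90 in control SCFA and 5.69, 9.51 and 8.44 in homozygous SCFA libraries. The homozygous library values were below control without SCFA and above it under SCFA, and the log2 interaction was 2.96 ± 0.44 (SE, adjusted p = 0.000846; 2.24 after GC correction). Krt83 (2.54 ± 0.44, SE; 1.47 after GC correction), Adck5 (2.32 ± 0.40; 1.28 after GC correction) and Dip2a (2.34 ± 0.46; 1.87 after GC correction) were low genes of the same pattern, below 12 CPM in every library, and were called after GC correction. The interaction of Adck5 then had an adjusted p = 0.0385 and lost its call with a replicate block added (0.0586) or control untreated 2 left out (0.064). Among the other highest interactions, Car1, a carbonic anhydrase of early red cells, stood at 1.65, 0.805 and 0 CPM in control untreated, 7.59, 8.28 and 6.77 in homozygous untreated, 0.0476, 1.37 and 0 in control SCFA and 59.5, 46.7 and 45.5 in homozygous SCFA libraries. It was above control in both treatments, and its call (adjusted p = 0.0391) was lost in 10 of 12 fits without 1 library, all but those without control untreated 3 or control SCFA 2 (highest adjusted p = 0.17). The log2 interaction of Car1, 3.43, was 7.33 without control SCFA 2, and the call was also lost by DESeq2 (adjusted p = 0.204) and by limma-voom (1.41, adjusted p = 0.568). Colec12, a scavenger receptor, lost its call in 6 of 12 such fits, those without control untreated 3, homozygous untreated 1 or 2, control SCFA 2 or homozygous SCFA 2 or 3 (highest adjusted p = 0.0726), and by DESeq2 (adjusted p = 0.0601). The log2 interaction of Colec12, 3.68, was 6.38 without control SCFA 1 and 5.93 by limma-voom. Epdr1 kept its call after GC correction at 2.95, while Miga2 and the channel Trpv4 did not.

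Megakaryocyte and platelet genes were called higher for 7 of 16 and lower for none, and 6 and 0 after GC correction, at medians of 0.63 and 0.48. Without control untreated 2 the corrected count was 3. Itga2b, the alpha chain of the platelet fibrinogen receptor, stood at 102, 191 and 159 CPM in control untreated, 80.4, 60.9 and 87.2 in homozygous untreated, 113, 89.4 and 78.6 in control SCFA and 168, 231 and 219 in homozygous SCFA libraries. Homozygous SCFA libraries lay above control SCFA, and homozygous untreated below control untreated, without overlap. The log2 interaction was 2.12 ± 0.31 (SE, adjusted p = 0.000751) and 1.10 after GC correction. Vwf, the platelet adhesion factor, had 1.80 ± 0.27 (SE; 0.95 after GC correction).

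Of 14 globin and heme genes 7 were called lower and 1, Urod, higher (7 and 0 after GC correction), at a median of -0.51. Hbb-bs, an adult beta globin, stood at 10051, 8142 and 7419 CPM in control untreated, 6180.1, 4715 and 3763 in homozygous untreated, 6487, 6391 and 7846 in control SCFA and 1071, 1192 and 1047 in homozygous SCFA libraries. Its log2 interaction was -1.84 ± 0.23 (SE, adjusted p = 0.000226; -2.10 after GC correction), with homozygous below control in both treatments and further below under SCFA. Its near copy Hbb-bt had -1.68 ± 0.25 (-1.87 after GC correction), and reads shared by these copies may have been divided. Of 20 red cell membrane and factor genes 6 were called higher and 2 lower, and 3 and 3 after GC correction, where over all genes 13.6% and 11.6% were, and 4.43% and 5.66% after correction.

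Antigen presentation genes were called higher for class II. Of 15 tested 8 were called higher and 1, H2-Ob, lower, at a median of 0.74, and 5 and 2 after GC correction, at 0.28. H2-Ab1, a class II beta chain, stood at 404, 569 and 474 CPM in control untreated, 376, 336 and 408 in homozygous untreated, 431, 383 and 337 in control SCFA and 762, 1031 and 991 in homozygous SCFA libraries. The genotypes overlapped without SCFA, and homozygous was above control under SCFA, with a log2 interaction of 1.64 ± 0.22 (SE, adjusted p = 0.000358) and 0.70 after GC correction. H2-Eb1 had 1.53 ± 0.21 (SE; 1.18 after GC correction). Class I changed with the processing: of 17 tested 5 were called higher and 2 lower, and 0 and 9 after GC correction, with the median going from 0.16 to -0.46. B2m, the light chain of class I molecules, and H2-Q6 were lower both ways. B2m stood at 1260.3, 727 and 837 CPM in control untreated, 2651, 2778 and 2077 in homozygous untreated, 1774, 1723 and 1868 in control SCFA and 1960.4, 1714 and 1548 in homozygous SCFA libraries. Homozygous was above control without SCFA and overlapped it under SCFA, with a log2 interaction of -1.45 ± 0.25 (SE, adjusted p = 0.00196; -0.85 after GC correction).

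Genes of IL-6 family and STAT3 signalling, the pathway of the transgene, were called higher for 14 of 25 and lower for 1, Jak2, at a median log2 interaction of 0.90. After GC correction 8 were called higher and 1, Il21r, lower, at 0.28. Over all genes tested 13.6% were called higher, and 4.43% after GC correction. The list's median GC was 54.15%. Of all genes with 52.5% to 54.5% GC, 24% were called higher, and 6.04% after GC correction. Stat3 (chr11:100885098-100939540) stood at 274, 438 and 359 CPM in control untreated, 293, 267 and 322 in homozygous untreated, 249, 247 and 224 in control SCFA and 319, 374 and 398 in homozygous SCFA libraries. The genotypes overlapped without SCFA and were apart under it; counts by gene cannot separate the endogenous from the transgenic transcript. The log2 interaction was 0.88 ± 0.22 (SE, adjusted p = 0.0111), and 0.44 after GC correction (adjusted p = 0.0388). The interaction of Stat3 was not called with GC correction and control untreated 2 left out (adjusted p = 0.0832). Socs3, the feedback inhibitor that STAT3 induces, stood at 112, 173 and 144 CPM in control untreated, 94.9, 73.01 and 102 in homozygous untreated, 82.8, 71.002 and 58.2 in control SCFA and 118, 163 and 171 in homozygous SCFA libraries. Homozygous lay below control without SCFA, with no overlap, and above it under SCFA, with no overlap. Its log2 interaction of 1.76 ± 0.28 (SE, adjusted p = 0.00119) became 0.69 after GC correction (adjusted p = 0.00404). Osm, a cytokine of the family, had 1.54 ± 0.22 (SE) and 0.90, and Junb 1.73 ± 0.24 and 0.37. The interaction of Junb was also not called under that setting (adjusted p = 0.0553), nor with GC correction and a replicate block (0.0537).

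Immediate early genes, which cells switch on within minutes of a stimulus, were called higher for 13 of 23 and lower for none, at a median of 0.95. After GC correction 8 were higher and 2, Jund and Dusp2, lower, at 0.32. The list's median GC was 53.96%, in the class of genes where 24% were called higher, and 6.04% after GC correction. Egr1 stood at 85.5, 86.1 and 87.8 CPM in control untreated, 44.7, 40.4 and 41.9 in homozygous untreated, 161, 131 and 153 in control SCFA and 226, 238 and 229.6 in homozygous SCFA libraries. All 4 groups were apart from each other, and the log2 interaction was 1.67 ± 0.16 (SE, adjusted p = 1.56e-05), and 0.76 after GC correction. Fos, a subunit of AP-1, stood at 278, 268 and 242 CPM in control untreated, 165, 197 and 196 in homozygous untreated, 439, 404 and 417 in control SCFA and 665, 667 and 684 in homozygous SCFA libraries, at 1.18 ± 0.15 (SE) and 0.84. Both genes were higher in SCFA than in untreated libraries of either genotype, a difference that treatment and date share.

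The study's title names osteoclasts, which derive from myeloid progenitors under Csf1 and RANKL. Of 21 genes of osteoclast differentiation and function 11 were called higher and 2 lower (13.6% and 11.6% over all genes), at a median of 0.77. After GC correction 4 and 0 were (4.43% and 5.66% over all genes), at 0.19. The 4 were Csf1r, Fos, Mmp9 and Trem2. Csf1r, the Csf1 receptor, stood at 348, 591 and 494 CPM in control untreated, 387, 372 and 450.0 in homozygous untreated, 354, 355 and 315 in control SCFA and 592, 698 and 709 in homozygous SCFA libraries. The genotypes overlapped without SCFA and were apart under it, with a log2 interaction of 1.21 ± 0.23 (SE, adjusted p = 0.00324) and 0.54 after GC correction. Tnfrsf11a, which encodes the RANKL receptor RANK, stood at 10.3, 14.9 and 14.3 CPM in control untreated, 31.8, 19.9 and 27.5 in homozygous untreated, 27.9, 27.8 and 32.5 in control SCFA and 35.9, 33.6 and 30.3 in homozygous SCFA libraries. Its log2 interaction of -0.82 ± 0.27 (SE, adjusted p = 0.039; -0.68 after GC correction) went the other way, was not called after GC correction (adjusted p = 0.114) and was lost in 9 of 12 fits without 1 library, all but those without control untreated 2, homozygous untreated 2 or homozygous SCFA 1. The protease gene Ctsk, abundant in mature osteoclasts, stood at 0.204 to 2.55 CPM and was not called.

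Of the 8 tested genes for SCFA receptors, transporters and enzymes, only the monocarboxylate exporter gene Slc16a3 was called higher (1.43 ± 0.26, SE; 0.53 after GC correction), with none lower; after GC correction Bsg was also called, lower. Ffar2, the acetate and propionate receptor, stood at 10.1, 12.02 and 9.74 CPM in control untreated, 12.5, 10.7 and 13.4 in homozygous untreated, 9.04, 7.65 and 5.16 in control SCFA and 9.98, 12.8 and 12.7 in homozygous SCFA libraries. The genotypes overlapped without SCFA and were apart by a small margin under it, and its interaction of 0.49 ± 0.31 (SE, adjusted p = 0.263) changed sign after GC correction (-0.05). Among 11 histone deacetylases 2 were called higher and 2 lower, near the shares over all genes tested (13.6% and 11.6%). After GC correction Hdac4 was higher and Hdac9 lower, where 4.43% and 5.66% of all genes were. Hdac9 stood at 21.5, 24.2 and 22.03 CPM in control untreated, 7.27, 10.1 and 7.42 in homozygous untreated, 32.02, 28.05 and 30.4 in control SCFA and 3.17, 2.86 and 2.34 in homozygous SCFA libraries. The homozygous SCFA group was the lowest and control SCFA the highest, as for Ebf1, with a log2 interaction of -1.98 ± 0.26 (SE, adjusted p = 0.000353; -1.56 after GC correction).

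Glycolysis genes were called higher for 12 of 17 and lower for none, at a median of 0.88, and 6 and 1 (Pgk1) after GC correction, at 0.36. Their median GC was 52.79%, in the class of genes where 24% were called higher, and 6.04% after GC correction. Aldoa, the aldolase of the pathway, had 1.44 ± 0.24 (SE, adjusted p = 0.00155) and 0.52 after GC correction. Slc2a3, a glucose transporter chosen after its values were seen, had 0.79 ± 0.19 and 0.99. Of 20 late neutrophil genes 9 were higher and 3 lower (6 and 2 after GC correction). Beside this list and the monocyte markers below, the shares over all genes were 13.6% and 11.6% (4.43% and 5.66% after GC correction). Hp, haptoglobin, was called higher at 1.47 ± 0.23 (SE; 0.63 after GC correction), and Il1r2, a decoy receptor for interleukin 1, lower at -0.88 ± 0.14 (-0.87 after GC correction). Of 18 monocyte markers 4 were higher and 5 lower (5 and 3), with Ly6c2 lower at -0.82 ± 0.17 (SE; -0.72 after GC correction).

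Other lists had more genes called lower. Of 21 genes of G2 and M phase 12 were called lower and 1, Cdc20, higher, at a median of -0.68, and 7 and 0 after GC correction, at -0.37. Without control untreated 2 the corrected count of lower genes was 3. Kif11, a spindle motor, stood at 172, 152 and 197 CPM in control untreated, 253, 259.8 and 274 in homozygous untreated, 235, 264 and 249 in control SCFA and 201, 144 and 161 in homozygous SCFA libraries. Homozygous was above control without SCFA and below it under SCFA, without overlap, at -1.16 ± 0.19 (SE, adjusted p = 0.0016; -0.58 after GC correction). The interaction of Kif11 was not called with GC correction and a replicate block (adjusted p = 0.051) or control untreated 2 left out (0.0664). Mitochondrially encoded genes, with a median GC of only 36.55%, were called lower for 7 of 12, and for 2 after GC correction; without control untreated 2 these were 3 and 1. Heat shock genes were called lower for 4 of 11 and higher for none (5 and 0 after GC correction), Hspd1, a mitochondrial chaperonin, at -0.87 ± 0.18 (SE; -0.62 after GC correction).

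The remaining lists are given as called higher and lower, then the same after GC correction. Over all genes tested these shares were 13.6% and 11.6%, then 4.43% and 5.66%. Of 22 ribosomal protein genes 9 and 5 were called, then 7 and 4. Of 22 oxidative phosphorylation genes these were 6 and 7, then 4 and 3, and of 22 cytokines and chemokines 4 and 3, then 6 and 1. After correction, 1 gene each was called higher in the Notch, the eosinophil, basophil and mast cell, and the plasma cell lists below. The other lists that follow had none, which in lists of this size is near the share over all genes. Of 20 S phase genes 2 and 7 were called, then 0 and 2. Of 13 primary granule genes the counts were 4 and 3, then 0 and 2, of 16 p53 targets 3 and 3, then 0 and 3, of 20 fatty acid oxidation genes 3 and 3, then 0 and 1, and of 18 genes of the unfolded protein response 4 and 2, then 0 and 4. Notch pathway genes had 2 and 3 of 14, then 1 and 3, with a median that went from 0.42 to -0.37. Eosinophil, basophil and mast cell markers had 3 and 2 of 18, then 1 and 0, plasma cell genes 1 and 1 of 10, then 1 and 3, and NK cell markers 0 and 2 of 11, then 0 and 0. Stefins had 1 and 0 of 11, a list for which the GC check is void because 6 members have a GC value. Stromal and endothelial markers had 0 called of 11 by edgeR, with 3 at an unadjusted p under 0.05, and 0 after GC correction.

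**Figure D5:**
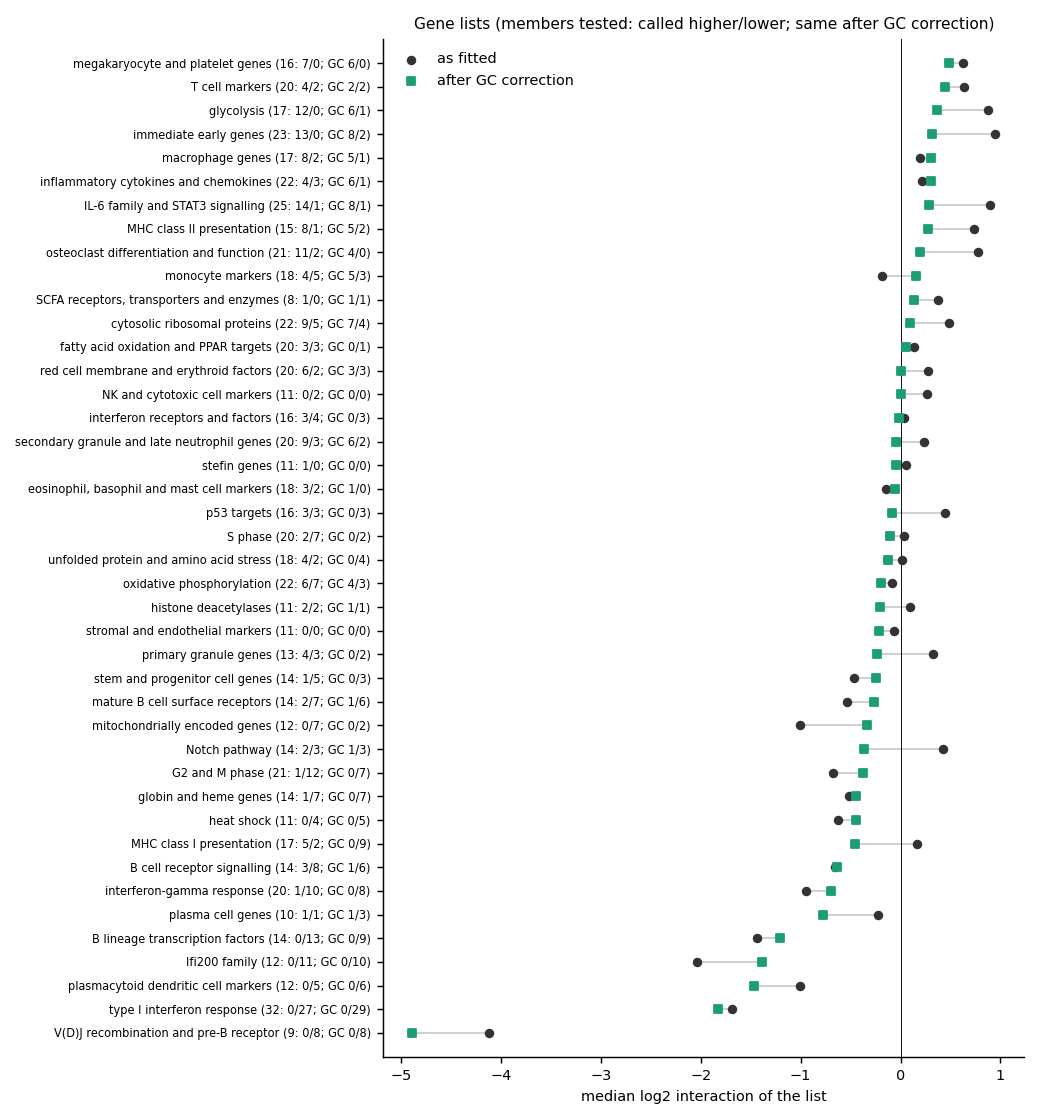
Median log2 interaction of each of 42 gene lists as fitted (dark circles) and after GC correction (green squares), with the number of members tested and called higher and lower in each label. The V(D)J, type I interferon, Ifi200 and B lineage factor lists lie at or below -1.21 both ways, while glycolysis, immediate early, IL-6 and STAT3, and osteoclast lists lie nearer to 0 after the correction.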

How the data were processed

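RNA of non-adherent marrow cells was sequenced in 12 libraries (low-input poly(A) kit, per the labels' protocols). The authors deposited whole-number read counts per gene, made with STAR and featureCounts on mm10, as the submitters' processing notes name them. Neither their versions, nor the annotation or strandedness, is given in the sources used here, so overlapping antisense genes cannot be told apart. Of 55291 symbols 22077 had 0 counts throughout, and 96.4% were found in GENCODE M21, from which coordinates and transcript GC were taken. Totals were 16954355 to 20748995, and bounds for 0 counts cover counting error only.

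From the counts, edgeR 4.0.16 in R 4.3.3 kept 15674 genes (filterByExpr by group), scaled them by TMM and fitted 4 group means over 12 libraries with its quasi-likelihood test. The interaction and both genotype differences were contrasts of that fit, and Benjamini-Hochberg adjusted p under 0.05 was called. Values after ± are standard errors, derived as the size of the log2 interaction divided by the square root of its F statistic in that test. The scripts were tested on simulated data.

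The GC correction, chosen after the data were seen, took a robust loess curve (span 0.5) of each library's log CPM deviation on GC as an offset. Alternatives were DESeq2 1.42.0, limma-voom 3.58.1, other scaling, no filter, a replicate block, a minimum fold, the linear scale and leaving out each library. Members and gene lists were chosen with earlier results of these data known. Named genes were, by rule, among called genes with a group mean of at least 5 CPM and without clone names or antigen receptor segments, the 8 highest and 8 lowest called interactions, the 6 smallest p, the 5 highest and 5 lowest with both genotype differences called in opposite directions, the 2 smallest p of each list with at least 3 called members, and always Stat3, Socs3, Tnfrsf11a, Csf1r, Ffar2 and Cd4. Other genes were named after their values were seen, and a few named by rule are not reported here.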

Additional observations from a re-analysis of the deposited data

Results flagged for a closer look

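The interaction is itself a test of whether the genotype effect differs between SCFA and untreated mice. The genes below were selected by their call in edgeR's quasi-likelihood test, so the call is no added support for them. In all 3938 genes were called, 2125 higher and 1813 lower. The 361 with both genotype differences called in opposite directions are a description that the interaction does not test, and they were 106 after GC correction. Of single genes named by rule, those called higher were Colec12 (log2 interaction 3.68), Car1 (3.43), Aqp1 (2.96), Epdr1 (2.91), Krt83 (2.54), Apoe (2.52), Miga2 (2.46), Trpv4 (2.38), Dip2a (2.34) and Adck5 (2.32). Miga2 and Trpv4 were not called after GC correction, and Colec12, Car1 and Trpv4 lost their call in some fits without 1 library. Those called lower were Cecr2 (-5.11), Akap12 (-5.10), Fam129c (-3.78), Ifit2 (-3.17), Ebf1 (-3.01), Ifi213 (-2.97), Ifi27l2a (-2.88), Trim30c (-2.77), Ifi206 (-2.34) and Kynu (-2.23). The other 8 had 0 counts in homozygous SCFA, and their fitted values depend on the prior count and are no bound: Rag2 -11.89, Rag1 -11.82, Gfra1 -10.83, Lgr5 -9.81, Tnfrsf19 -9.80, Sertad4 -9.14, Col5a3 -8.79 and Gpr12 -8.18.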

How the results depend on the processing

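Of 98 named genes 96 were called, and 91 of these kept their call in all 12 fits without 1 library; Colec12, Car1 and Tnfrsf11a did not, nor did Trpv4 (without homozygous untreated 1, control SCFA 2 or 3, or homozygous SCFA 2) and Heyl (without homozygous untreated 1, control SCFA 3 or homozygous SCFA 2). After GC correction 16 lost their call. The sign changed for the interaction of Ffar2, which was -0.0459 after GC correction, -0.0353 with GC correction and replicate block and -0.03047 with GC correction and control untreated 2 left out, and for the interaction of Col5a3, 6.74 CPM on the linear scale. The counts called were 3938 as reported, 4684 by DESeq2, 5806 by limma-voom, 3899 with RLE scaling and 4235 without a filter. With a tested fold of at least 1.5 they were 839 (534 higher, 305 lower). With GC correction they were 1581 (694 and 887; 1136 with opposite signs, 106 with both differences called and opposite), with GC correction and a replicate block 1475 (618 and 857; 1056 and 85), and with GC correction and control untreated 2 left out 1047 (454 and 593; 704 and 46, and 54 smaller under SCFA). By limma-voom 2950 were lower, 274 smaller under SCFA and 1185 called both ways with opposite signs, a count that was 686 by DESeq2 and 615 without a filter. Fits without 1 library gave 2455 to 5379 called, 1402 to 2917 higher, 1053 to 2462 lower, 2092 to 4690 with opposite signs, 254 to 367 larger, 70 to 359 smaller and 63 to 1010 called both ways with opposite signs. Counts of genes lower fell most without homozygous SCFA 2 (1053), control SCFA 3 (1072), homozygous untreated 2 (1108), homozygous SCFA 3 (1127) and control untreated 2 (1185), and of genes higher without homozygous SCFA 2 (1402) and control SCFA 3 (1406). The cause was not tested. Replicate numbers were shared across groups, and the labels do not say what they stand for. Correlations of same-numbered libraries, as deviations from their group means, were -0.114 to 0.108. With 3 libraries per group these cannot exclude a shared day or litter. With the replicate block 3715 genes were called, 1925 higher and 1790 lower.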
